A study of Homo sapiens with 48 samples.

Results

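ACTL6A was knocked out in A382, an established human glioblastoma cell line, with 2 guide RNAs, and polyadenylated RNA was sequenced from 1 library per guide. These 2 libraries were set against the 2 libraries of the control guide sgNeg2, titled R1 and R2. The comparison thus used 4 of the 48 libraries of the series. Another label field numbers the sgNeg2 guide RNA 1 and 2, and they were treated as 2 libraries of 1 control group. Members were the columns carrying these names in the deposited expression table. All 4 cell populations had been infected with lentivirus carrying a guide RNA and were collected at day 9 after infection. The labels give no share of edited cells and no cutting position for either guide. The series as a whole addresses what losing subunits of the EP400/TIP60 chromatin complex does to gene expression in glioblastoma cells. Nothing in the labels says that the R1 and R2 libraries came from separate cultures, and their difference may be a technical one. The spread that the tests use was shared over 20 libraries and came mostly from pairs of different guides against the same target. In these pairs guides stood in for replicates.

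ACTL6A, also called BAF53a, is an actin-like protein. It is a subunit of the EP400/TIP60 complex, which acetylates histones and places the variant H2A.Z in chromatin. It also belongs to the BAF (SWI/SNF) nucleosome remodelling complexes and to the INO80 complex. In neurons its place in the BAF complex is taken by the paralog ACTL6B, and in epidermal and other progenitors ACTL6A is known for holding back differentiation genes.

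Expression was read as FPKM, fragments counted on a gene divided by transcript length and library depth, as the authors deposited it. Between 10549 and 10733 genes reached 1 FPKM in the 4 libraries. At 1 FPKM a kilobase of transcript was covered by an estimated 9.3 fragments in sgNeg2 R1, 17.4 in sgNeg2 R2, 13.9 in guide 1 and 12.4 in guide 2. The summed FPKM of the cytosolic ribosomal protein genes was 57949 in sgNeg2 R1, 46608 in sgNeg2 R2, 51063 in guide 1 and 61141 in guide 2, so the guides' range overlapped that of the controls. Of 10 glioma and astrocyte markers, 6 reached 1 FPKM (VIM, SOX2, EGFR, CD44, SOX9 and PDGFRA). The defining markers GFAP, NES, OLIG2 and S100B stayed under 0.5 FPKM in all 4 libraries, and OLIG2 was listed at 0. Markers of other cells were at or near 0 for the most part. None of 5 endothelial markers reached 1 FPKM, and CD68 was the 1 of 6 myeloid, CNP the 1 of 5 oligodendrocyte and KRT8 and KRT18 the 2 of 7 epithelial markers that did. The exception was the neuron list, of which 5 of 6 reached 1 FPKM. Its summed level was 410 and 452 FPKM in the controls and at most 396 FPKM in the guides, while RBFOX3 was listed at 0 throughout.

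ACTL6A mRNA stood at 33.5 FPKM in sgNeg2 R1, 28.3 in sgNeg2 R2, 13.7 with guide 1 and 9.44 with guide 2. Both guides lay below both controls, and guide 2 was the lower one. The log2 fold change, computed on log2(FPKM + 1) as throughout, was -1.36 ± 0.19 (SE, 2 libraries against 2), with an adjusted p of 0.00784 by limma. In 16 libraries of other knockouts from the same section of the deposited expression table, ACTL6A lay between 19.2 and 43.5 FPKM. It was above both guides in all 16. The paralog ACTL6B was listed at 0 in all 4 libraries. An mRNA level does not report the protein or the share of edited alleles.

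Motifs in gene promoters are shown first, for genes described further on. RefSeq promoter sequences (GRCh38.p14, the 250 bases before the annotated start) were matched by symbol for 9439 of the 11382 tested genes. The expression values themselves were made on hg19, so these coordinates belong to the sequence table only. TNFAIP3 encodes A20, which restrains NF-kappaB signalling, and its promoter is shown because it was the only promoter among the called rises with the NF-kappaB motif GGGANTTTC. CHAC1, which degrades glutathione, and ASNS, which makes asparagine, are classical targets of the stress transcription factor ATF4, and their promoters carry the motif TGATGNAA. Each sequence runs 5′ to 3′ on the gene's strand, and capitals mark the motif, found on either strand.
TNFAIP3 (chr6:137867009-137867258, plus strand): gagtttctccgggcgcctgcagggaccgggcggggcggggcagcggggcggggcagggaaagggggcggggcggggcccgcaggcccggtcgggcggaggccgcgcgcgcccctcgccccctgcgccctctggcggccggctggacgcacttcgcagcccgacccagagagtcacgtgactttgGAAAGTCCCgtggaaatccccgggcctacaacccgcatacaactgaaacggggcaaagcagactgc
CHAC1 (chr15:40953221-40953470, plus strand): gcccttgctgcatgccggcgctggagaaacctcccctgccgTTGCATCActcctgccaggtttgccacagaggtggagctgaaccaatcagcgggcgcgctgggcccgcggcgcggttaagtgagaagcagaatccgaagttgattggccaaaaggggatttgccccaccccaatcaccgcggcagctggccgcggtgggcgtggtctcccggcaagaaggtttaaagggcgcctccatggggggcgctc
ASNS (chr7:97872409-97872658, minus strand): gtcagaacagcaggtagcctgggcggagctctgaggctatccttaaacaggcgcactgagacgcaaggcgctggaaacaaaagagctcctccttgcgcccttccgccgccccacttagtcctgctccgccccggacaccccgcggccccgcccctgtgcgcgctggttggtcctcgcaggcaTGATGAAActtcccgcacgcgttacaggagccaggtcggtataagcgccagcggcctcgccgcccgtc
The capitals begin at position -66 from the start site in TNFAIP3, -209 in CHAC1 and -68 in ASNS. Of the 30 tested genes of an ATF4 and unfolded protein response list, 25 had a promoter in the table, and 4 of those (16%) held TGATGNAA. It was in 1.39% of the promoters of tested genes and in 3.14% of all 35116 promoters of this length, and in 2 of 17 promoters of called rises and 4 of 52 of called falls. GGGANTTTC was in 1 of 17 promoters of called rises, 0 of 52 of called falls, 0.93% of tested genes and 1.12% of all promoters. The TEAD motif GGAATG was in 3 of 17 and 9 of 52, beside 9.32% of tested genes and 11.89% of all promoters. The AP-1 motif TGANTCA was in 1 of 17 and 3 of 52, beside 3.73% of tested genes and 6.57% of all promoters. The box TATAAA was in 2 of 17 and 6 of 52, beside 5.27% of tested genes and 10.72% of all promoters. Both strands were searched and overlap between motifs was not counted. A match describes letters in a window and is not a measured binding site.

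Loss of ACTL6A mRNA was accompanied by few called changes. Of 11382 tested genes, 89 were called at an adjusted p under 0.05 (0.782%), 25 higher (0.22%) and 64 lower (0.562%). The change was at least 2-fold for 14 of the rises and 25 of the falls. At an unadjusted p under 0.05 there were 1776 genes, 653 higher and 1123 lower. The median log2 fold change over all tested genes was -0.02. Both guides lay on the same side of both controls for all 89 called genes. Over all tested genes, both guides lay above both controls in 19.6% and below both in 27.2%. The median sgNeg2 level of the called genes was 7.71 FPKM, against 9.52 for tested genes, and 32 of them had a control mean under 5 FPKM. Without sgNeg2 R1 or without guide 2 no gene was called, and without sgNeg2 R2 there were 5. Without guide 1 there were 380, and with no filter on low values 33.

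**Figure D1:**
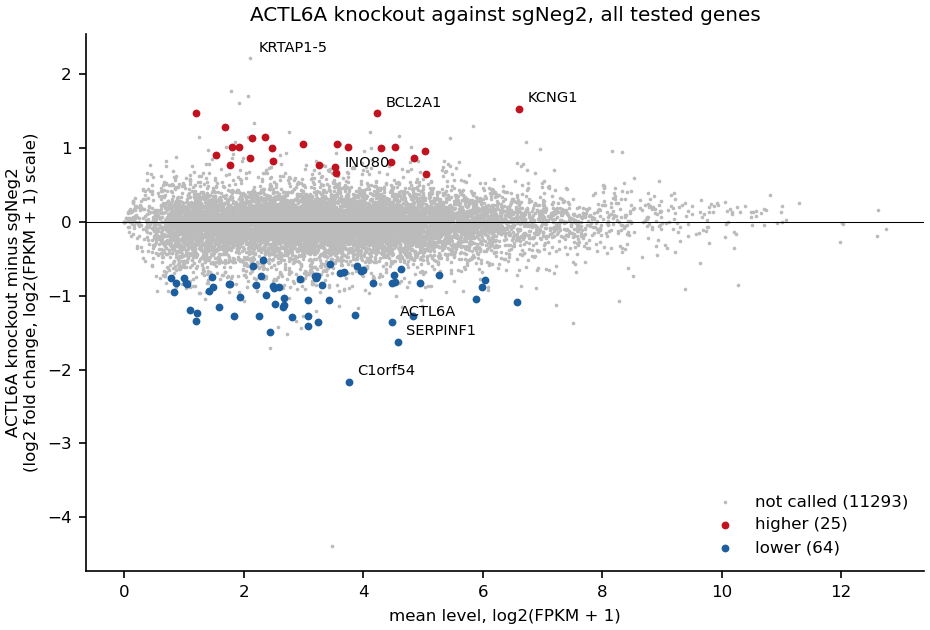
Log2 fold change of ACTL6A knockout against sgNeg2 (vertical axis, log2(FPKM + 1) scale) against mean level (horizontal axis, log2(FPKM + 1)) for the 11382 tested genes. Each point is 1 gene, with the 25 called rises in red, the 64 called falls in blue and the others in grey. KRTAP1-5, labelled at the top, was not called.

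The 12 largest called rises had log2 fold changes of 0.86 to 1.54, and they belonged to several functional classes. KCNG1, a modifier subunit of voltage-gated potassium channels, stood at 46.8 and 50.0 FPKM in the controls and 120 and 169 FPKM with guides 1 and 2. Its log2 fold change was 1.54 ± 0.23 (adjusted p = 0.00945). The controls differed little and both guides were more than 2-fold above them. Of the 16 libraries of other knockouts, 15 lay below both guides. BCL2A1, an anti-apoptotic member of the BCL2 family, was at 10.2 and 7.79 FPKM in the controls and at 25.1 and 27.9 with the guides, a change of 1.47 ± 0.26 (adjusted p = 0.0181). The guides nearly coincided, and all 16 other knockout libraries lay below them, at 10.6 to 23.3 FPKM. Both controls lay below all 16, and the difference from EP400 knockout was 0.21 (adjusted p = 0.728).

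Genes of signalling and of the cell surface were among these rises. FZD8, a Wnt receptor, went from 6.72 and 6.53 FPKM to 12 and 18.2 (1.05 ± 0.19, adjusted p = 0.0181). HAS2, which makes hyaluronan, went from 14 and 14.4 FPKM to 30.1 and 29.6 (1.02 ± 0.22, adjusted p = 0.0402). Its values hardly differed within either group. RNF128, the E3 ubiquitin ligase GRAIL, went from 3.84 and 4.46 FPKM to 9.17 and 10.3 (1.06 ± 0.15, adjusted p = 0.00784), above all 16 other knockout libraries. RCAN1, an inhibitor of calcineurin, rose by 1.00, TMEM158, a membrane protein named for its induction by RAS, by 0.97, and SH2D5, an SH2-domain adaptor, by 1.15. ADAMTSL1, a secreted matrix protein, rose by 1.15 and CCDC78 by 1.01. The transcription factor NFE2L3, also called NRF3, went from 7.39 and 8.19 FPKM to 14.5 and 19.3 (1.02). Several of these genes were higher still in other knockouts: of the 16 libraries, 6 lay above both guides for RCAN1, 5 for NFE2L3, 3 for HAS2, 2 for FZD8 and 2 for TMEM158. TRIM22, an interferon- and p53-responsive antiviral protein, went from 19.1 and 19.7 FPKM to 31.5 and 41.4 (0.86).

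Leaving ACTL6A itself aside, the 12 largest called falls ran from -1.13 to -2.16. C1orf54 had the largest of them, at 24 and 16.6 FPKM in the controls, 7.92 with guide 1 and 1.46 with guide 2 (-2.16 ± 0.47, adjusted p = 0.0423). Guide 2 was far below guide 1 here. SERPINF1, the secreted anti-angiogenic factor PEDF, was at 36.4 and 32.4 FPKM in the controls and at 16.5 and 6.54 with the guides (-1.62 ± 0.36, adjusted p = 0.0465). CXCL12, a chemokine that binds CXCR4, was at 17.9 and 20.9 FPKM in the controls and at 9.53 and 5.84 with the guides (-1.26 ± 0.21, adjusted p = 0.0141). In each of these genes guide 2 lay below guide 1.

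EPAS1 encodes HIF-2α, a transcription factor stabilised by low oxygen and studied in glioblastoma. It stood at 12.2 and 12.9 FPKM in the controls and at 4.78 and 3.85 with the guides (-1.36 ± 0.23, adjusted p = 0.0156). All 16 libraries of other knockouts lay above both guides, at 5.24 to 11.0 FPKM, and both controls lay above all 16. A list of 31 tested hypoxia and glycolysis genes held 0 called genes and had a median of -0.04. HEXIM2, which holds the elongation kinase P-TEFb inactive, fell from 9.90 and 8.01 FPKM to 3.48 and 2.67 (-1.29 ± 0.18, adjusted p = 0.00784).

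The other large falls were enzymes, transporters and regulators. ST3GAL5, the synthase of the ganglioside GM3, fell from 42.1 and 36.5 FPKM to 17.0 and 14.4 (-1.27 ± 0.21, adjusted p = 0.0137). HSD17B14, a hydroxysteroid dehydrogenase, fell by 1.41, and SLC16A4, of the monocarboxylate transporter family, by 1.27. DEPTOR, an inhibitor of mTOR, went from 11.6 and 10.2 FPKM to 5.03 and 3.0 (-1.27 ± 0.27, adjusted p = 0.0367). DNAJC12, a co-chaperone of the aromatic amino acid hydroxylases, fell by 1.49. The bHLH factor ATOH8 fell by 1.15 and FAM69B by 1.13. Several of the 12 falls were as large or larger in other knockouts. Of the 16 libraries, 5 lay below both guides for ATOH8, 3 for DEPTOR, 2 for HSD17B14, 2 for FAM69B and 1 for SERPINF1. For the other falls, EPAS1 included, 0 did. Only 6 of the 16 lay above both guides for SERPINF1, and 10 each for C1orf54, DEPTOR and ATOH8.

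**Figure D2:**
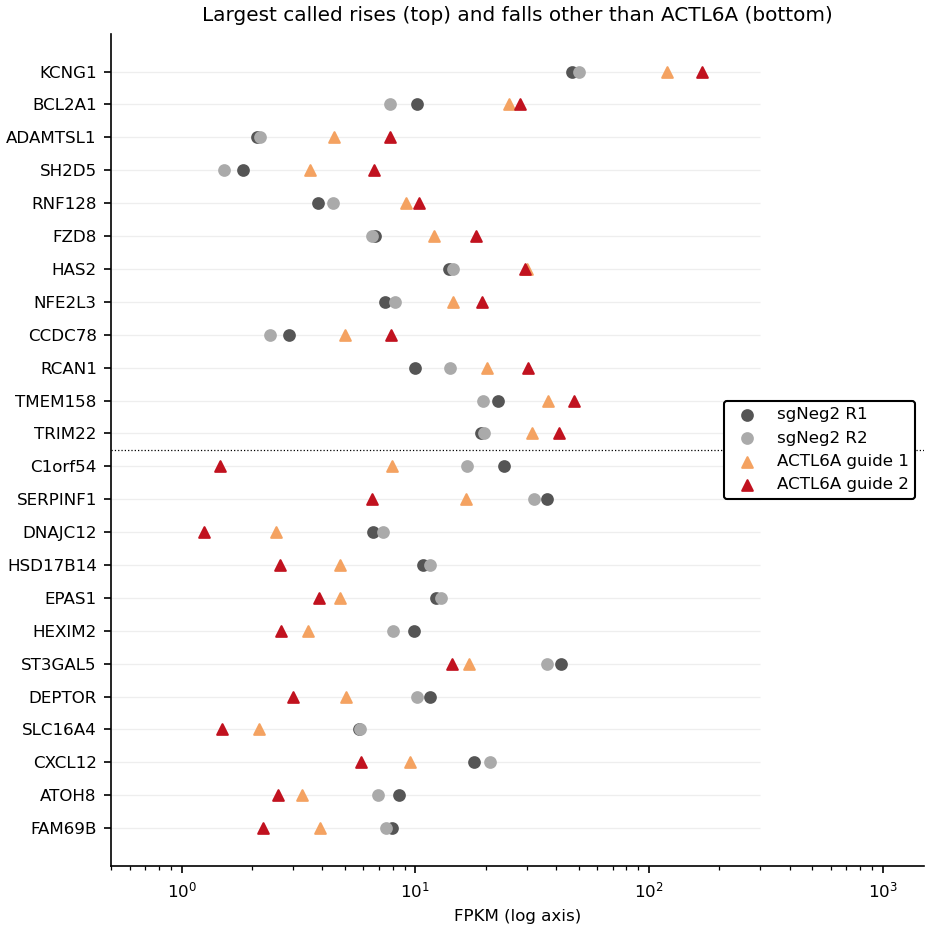
FPKM (log axis) of the 12 largest called rises, above the dotted line, and the 12 largest called falls other than ACTL6A itself, below it. Circles are the 2 sgNeg2 libraries and triangles the 2 ACTL6A guides. In every row both triangles lie on 1 side of both circles, from KCNG1 at 46.8 and 50.0 against 120 and 169 FPKM to C1orf54 at 24 and 16.6 against 7.92 and 1.46 FPKM.

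Among called genes of lower level, picked out after their values were seen, TNFAIP3 was at 1.24 and 1.35 FPKM in the controls and at 3.27 and 4.08 with the guides (1.02 ± 0.15, adjusted p = 0.00784). Its mean was 3.52 FPKM in EP400, 5.29 in TIP60 and 2.20 in GAS41 knockout. The ACTL6A knockout differed from these by 0.05, -0.43 and 0.55 (adjusted p = 0.906, 0.031 and 0.137). SFRP4, a secreted Wnt modulator, went from 0.149 and 0.222 FPKM to 1.45 and 3.41 (1.47 ± 0.23, adjusted p = 0.0102). Its mean was 1.52 FPKM in EP400, 2.09 in GAS41 and 8.11 in TIP60 knockout, the last above ACTL6A knockout (-1.47, adjusted p = 0.000226). TMEM173, the DNA-sensing adaptor STING, fell from 3.58 and 3.10 FPKM to 1.65 and 1.21 (-0.84 ± 0.15, adjusted p = 0.0181).

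The guides moved most called genes by unequal amounts. In 84 of the 89, 24 rises and 60 falls, guide 2 lay further from the control mean than guide 1. The same held for 68.7% of all tested genes. The median absolute log2 difference from the control mean was 0.127 for guide 1 and 0.201 for guide 2, beside 0.164 between the 2 control libraries. Taken alone, guide 1 gave 0 called genes in either direction (0%; 542 at an unadjusted p under 0.05). Guide 2 alone gave 111 higher (0.975%) and 269 lower (2.36%), with 85 of the 89 among them, though the 2 sets share libraries. Set directly against each other, the guides gave 0 called genes (0%; 445 at an unadjusted p under 0.05). Each of these fits takes 1 library to vary like the other targets. ACTL6A itself was -1.11 below the controls with guide 1 and -1.61 with guide 2.

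Single genes that differed most between the guides are given as a description. TGFB2, a secreted growth factor, was at 22.3 FPKM with guide 1 and 8.45 with guide 2, where the controls had 22.4 and 36.6. EDNRA, an endothelin receptor, was at 6.03 and 1.83, against 8.16 and 11.7 in the controls. ASB3 was at 8.15 and 2.50, against 6.24 and 7.24. In the other direction, STC2, a secreted stress-induced glycoprotein, was at 13.1 with guide 1 and 34.6 with guide 2, against 9.40 and 7.87. OSGIN1, a gene induced by oxidative stress, was at 5.55 and 13.8, against 5.18 and 4.37. KRTAP1-5, a hair keratin-associated protein, was at 2.25 and 10.4, against 0.213 and 0.403, and its change over both guides was not called (2.22 ± 0.56, adjusted p = 0.0803).

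The chromatin complexes that contain ACTL6A were measured next. Of 19 tested genes of the EP400/TIP60 complex, ACTL6A was the only one called, and the median was -0.04. BRD8, its bromodomain subunit, was at 34.3 and 30.7 FPKM in the controls and 30.6 and 23.6 with the guides (-0.26, adjusted p = 0.435). With ACTL6A left out of the list, 0 of 26 tested BAF genes were called and the median was 0.00. The ATPase SMARCA2 was at 17.1 and 17.7 FPKM in the controls and 13.8 and 8.70 with the guides (-0.62 ± 0.18, adjusted p = 0.106), and DPF2, a subunit that reads histone marks, was at -0.32 (adjusted p = 0.293).

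Of 16 tested genes of the INO80 and SRCAP complexes, ACTL6A again left out, 1 was called (0.782% of all tested genes). It was INO80, the ATPase of the complex of that name. INO80 stood at 7.60 and 8.54 FPKM in the controls and at 11.7 and 15.1 with the guides (0.66 ± 0.12, adjusted p = 0.0181). The 16 libraries of other knockouts spanned 6.24 to 8.48 FPKM, all below both guides. SRCAP, the ATPase of the related complex, was at 11.7 and 13.3 FPKM in the controls and 15.1 and 17.8 with the guides (0.37, adjusted p = 0.282). Of 7 tested genes beside ACTL6A in the genome 0 were called. All 7 had negative differences, with a median of -0.14, and NDUFB5, a subunit of respiratory complex I, was at -0.43 (adjusted p = 0.243).

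Among known p53 targets, 1 of 38 tested arrest and feedback genes was called (0.782% of all tested genes), TRIM22. Both guides lay above both controls in 19 of the 38 and below in 7 (19.6% and 27.2% of all tested genes), with a median of 0.16. CDKN1A, the p21 cell-cycle inhibitor, was at 223 and 207 FPKM in the controls, 238 with guide 1 and 374 with guide 2 (0.47 ± 0.23, adjusted p = 0.352). MDM2, the ubiquitin ligase of p53, was at 25.4 and 25.6 FPKM in the controls and at 31.8 and 41.2 with the guides (0.49 ± 0.18, adjusted p = 0.189). Both guides lay above both controls for CDKN1A and for MDM2, and neither was called. Of 13 tested p53 cell death targets 0 were called, with a median of 0.14.

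Proliferation genes showed no called change. In the G2/M list 0 of 38 were called, with a median of 0.24 for guide 1 and 0.04 for guide 2. In the G1/S and replication list 0 of 41 were called, at 0.21 and 0.07. Of all tested genes only 0.782% were called. Both guides lay above both controls in 9 of the 38 G2/M genes and below in 1. For the 41 G1/S genes these counts were 14 and 0, beside 19.6% and 27.2% of all tested genes. The kinesin KIF4A was at 11.8 and 9.61 FPKM in the controls and 14.8 and 14.3 with the guides (adjusted p = 0.205), and E2F1 was at 18.9 and 15.5 against 23.9 and 25.6 (adjusted p = 0.138). The ribosome biogenesis list had 0 of 32 called. Both guides lay above both controls in 21 of its genes and below in 1 (19.6% and 27.2% of all tested genes), and its median was 0.32, beside -0.02 for all tested genes. Its members WDR43 and BOP1 were at 0.49 and 0.62 (adjusted p = 0.128 and 0.133). The summed ribosomal protein FPKM given above was also highest in guide 2, and its part in these medians was not tested.

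Other lists held differences of the same order. YAP/TEAD targets had 0 of 23 called, with both guides above both controls in 11 (19.6% of all tested genes) and a median of 0.27. AMOTL2, a YAP-induced angiomotin, was at 14.2 and 16.3 FPKM in the controls and 20.5 and 29.3 with the guides (adjusted p = 0.206). HOX genes, which set body position, had 0 of 24 called, with both guides below both controls in 17 (27.2% of all tested genes) and a median of -0.26. HOXB7 was at 63.4 and 56.1 FPKM in the controls and 40.8 and 34.1 with the guides (adjusted p = 0.0859), and HOXC10 at 29.5 and 27.4 against 17.3 and 18.2 (adjusted p = 0.0935). Of 23 interferon-stimulated genes 1 was called (0.782% of all tested genes). Both guides lay below both controls in 14 of the 23 and above in 4 (27.2% and 19.6% of all tested genes). The called gene was IFITM3, a membrane protein that blocks viral entry. IFITM3 was at 14.8 and 14.5 FPKM in the controls and 8.24 and 9.42 with the guides (-0.68 ± 0.13, adjusted p = 0.0238). The interferon list's median was -0.24, while IRF7 was at 0.71 (adjusted p = 0.0676).

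Matrix and differentiation genes complete the lists. A list of collagens and other matrix genes had 0 of 31 called and a median of -0.10. Matrix genes outside this list were called, and some are given here after their values were seen. The collagen COL13A1 (-0.88, adjusted p = 0.0308), EMILIN1 (-0.83, adjusted p = 0.0308) and SNED1 (-1.08, adjusted p = 0.0238) were lower. ADAMTSL1, described above, was higher. SPARC, a secreted matrix glycoprotein, was at 409 and 423 FPKM in the controls and 246 and 159 with the guides (-1.07 ± 0.24, adjusted p = 0.0523), and LOX, a collagen cross-linking enzyme, was at 0.84 (adjusted p = 0.0962). Of 31 epidermal differentiation genes only 4 were expressed enough to be tested, and 0 were called. Of the cytokine list 2 of 17 were called (0.782% of all tested genes), TNFAIP3 higher and CXCL12 lower.

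**Figure D3:**
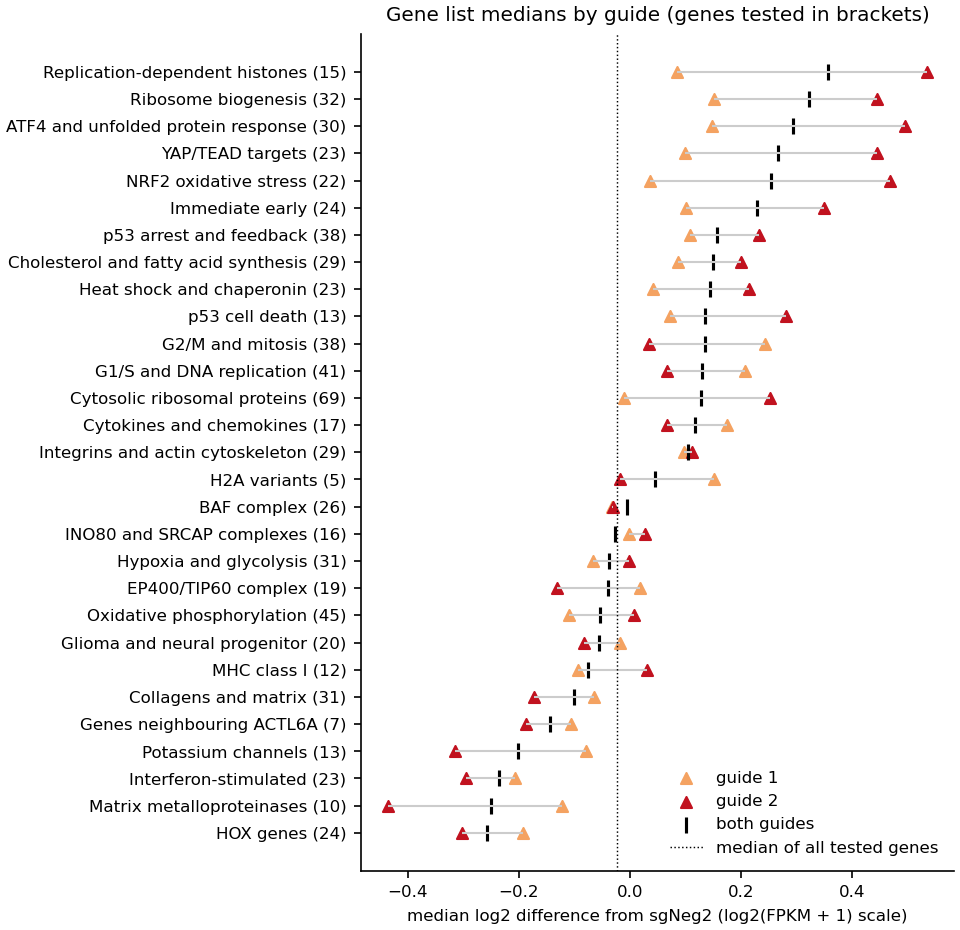
Median log2 difference from the sgNeg2 mean (log2(FPKM + 1) scale) for gene lists with at least 5 tested genes. Light triangles are guide 1, dark triangles guide 2, black ticks both guides together, and the dotted line is the median of all tested genes at -0.02. Replication-dependent histones (15 tested, 0 called) have the highest median of both guides together, 0.36, with 0.09 for guide 1 and 0.54 for guide 2. Ribosome biogenesis (0.15 and 0.45) and the ATF4 and unfolded protein response list (0.15 and 0.50) also lie to the right. HOX genes (-0.19 and -0.30) lie to the left.

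Genes of the ATF4 pathway, which raises amino acid synthesis and uptake under stress, were not called against the controls, and many were called against the EP400 and TIP60 knockouts. Against sgNeg2, 0 of 30 were called, both guides lay above both controls in 16 and below in 6 (19.6% and 27.2% of all tested genes), and the median was 0.29. CHAC1 was at 30.8 and 31.2 FPKM in the controls and 56.6 and 106 with the guides (1.30 ± 0.29, adjusted p = 0.0532). SLC7A5, the large neutral amino acid transporter, was at 28.4 and 23.3 against 44.7 and 74.3 (1.14 ± 0.27, adjusted p = 0.0674). PSAT1, an enzyme of serine synthesis, was at 71.5 and 60.6 against 116 and 172 (1.09 ± 0.28, adjusted p = 0.0832). The chaperone HSPA5, on the unfolded protein arm of the list, was at 119 and 126 against 115 and 113.

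ACTL6A knockout was next set directly against 3 other knockouts of the same complex. The differences used no control library, while the spread came from all 20 libraries, sgNeg2 included. EP400 is the scaffold ATPase, TIP60 the acetyltransferase and GAS41 a reader of acetylated histones, and each had 2 libraries, 1 per guide. Against EP400 there were 93 genes higher in ACTL6A knockout (0.817%) and 116 lower (1.02%). Against TIP60 there were 2492 higher (21.9%) and 1610 lower (14.1%), and with each library centred on its median the split was 1819 higher and 2296 lower. Against GAS41 there were 13 higher (0.114%) and 23 lower (0.202%). ACTL6A mRNA was lower than in each of them, by -1.38 against EP400 (adjusted p = 0.00478), -1.67 against TIP60 (adjusted p = 1.68e-05) and -1.21 against GAS41 (adjusted p = 0.0126). The 209 calls against EP400 became 3 or 4 without either EP400 library or ACTL6A guide 2, and 131 without guide 1. The 4102 against TIP60 became 2720 without ACTL6A guide 1. For the 36 against GAS41 the number was 0 without ACTL6A guide 2 or GAS41 guide 2, 10 without ACTL6A guide 1 and 23 without GAS41 guide 1. These 3 comparisons share the ACTL6A libraries with each other and with the comparison against sgNeg2.

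The ATF4 list stood 12 of 30 higher than in EP400 knockout (40%) and 0 lower, with a median difference of 0.64. It stood 17 of 30 higher than in TIP60 knockout (56.7%) and 0 lower, with a median of 0.62. Of all tested genes, 0.817% were higher and 1.02% lower than in EP400 knockout, with a median of 0.01. Against TIP60 these shares were 21.9% and 14.1%, with a median of 0.07. Against GAS41 it held 0 called genes and a median of -0.04. PSAT1 was at 116 and 172 FPKM in ACTL6A knockout, 52.6 and 40.3 in EP400, 57.7 and 46.2 in TIP60 and 123 and 103 in GAS41. The PSAT1 difference was 1.60 ± 0.28 against EP400 (adjusted p = 0.018), 1.43 ± 0.28 against TIP60 (adjusted p = 0.00125) and 0.32 ± 0.28 against GAS41 (adjusted p = 0.669). Its controls, at 71.5 and 60.6 FPKM, lay between.

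CHAC1 was at 34.2 and 28.8 FPKM in EP400, 33.6 and 27.6 in TIP60 and 65.3 and 59.0 in GAS41, against 56.6 and 106 in ACTL6A knockout. The CHAC1 difference was 1.28 ± 0.29 against EP400 (adjusted p = 0.0402) and 1.32 ± 0.29 against TIP60 (adjusted p = 0.00277). SLC7A5 differed by 1.5 and 1.35 (adjusted p = 0.0189 and 0.00138). PCK2, the mitochondrial PEP carboxykinase, differed by 1.55 and 2.12 (adjusted p = 0.0189 and 5.81e-05), at mean levels of 4.53 FPKM in EP400 and 2.70 in TIP60 against 13.4 and 17.0 with the ACTL6A guides. ASNS, whose promoter is printed above, differed by 1.44 and 1.83 (adjusted p = 0.0342 and 0.000359). The count against EP400 was 0 without either EP400 library, without ACTL6A guide 2 or with no filter on low values, and 7 without guide 1. The count against TIP60 ran from 11 to 18 when 1 library was left out, the lowest without ACTL6A guide 2.

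Sterol and fatty acid synthesis genes gave 3 of 29 higher than in EP400 knockout (10.3%, median 0.45) and 22 of 29 higher than in TIP60 knockout (75.9%, median 0.72). None was lower in either. Over all tested genes, 0.817% were higher than in EP400 and 21.9% higher than in TIP60 knockout, with medians of 0.01 and 0.07. The 3 were HMGCS1, which makes HMG-CoA, and the sterol enzymes LSS and MSMO1. HMGCS1 was at 11.0 and 11.9 FPKM with the ACTL6A guides and at 7.16 and 7.85 in EP400 (0.55 ± 0.13, adjusted p = 0.0477). Against sgNeg2, where HMGCS1 had 7.91 and 8.71 FPKM, 0 of 29 were called and the median was 0.15. Against GAS41 0 of 29 were called and the median was -0.10. Without either EP400 library or without ACTL6A guide 2 the 3 went to 0, and without guide 1 to 1, while the 22 against TIP60 became 16 to 20.

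**Figure D4:**
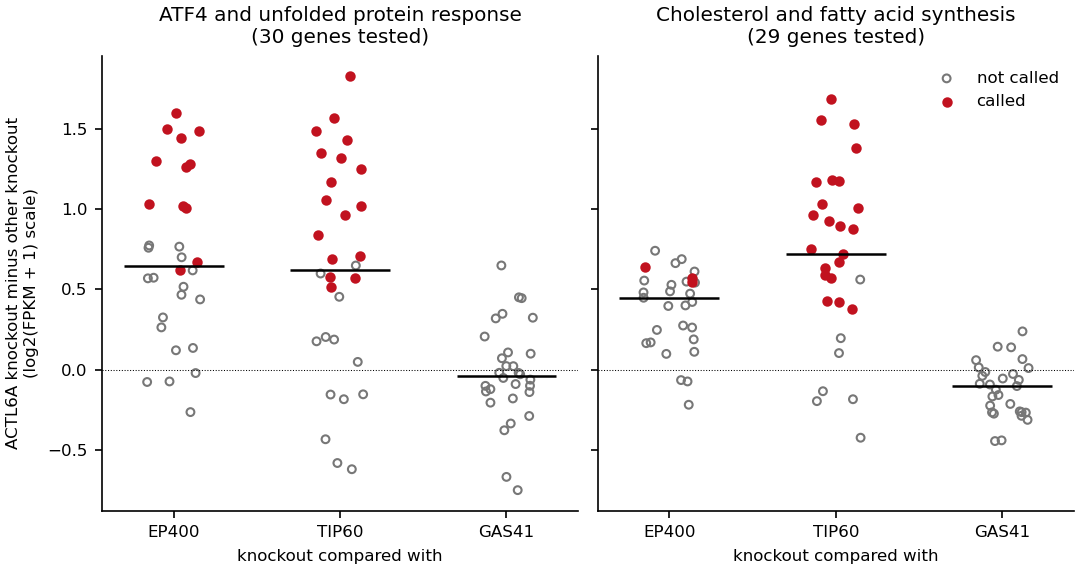
Difference of ACTL6A knockout from the EP400, TIP60 and GAS41 knockouts (log2(FPKM + 1) scale) for the 30 tested ATF4 genes, left, and the 29 tested sterol and fatty acid genes, right. Each circle is 1 gene, filled where called, and bars are medians. The ATF4 medians are 0.64, 0.62 and -0.04, and the sterol medians 0.45, 0.72 and -0.10.

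The genes with the largest called differences from EP400 and TIP60 included several that were high in those knockouts. Below EP400 knockout, the inflammatory cytokine IL1B was at 14.6 and 19.3 FPKM against a mean of 65.1 (-1.90 ± 0.23, adjusted p = 0.00147), with 12.7 and 12.3 FPKM in sgNeg2. The hormone CCK differed by -1.69 and CD33, a sialic acid receptor, by -1.39. Against TIP60, STRA6, the retinol transporter, differed by -4.69, at 2.58 and 3.69 FPKM against a mean of 107, UCN2 by -3.47 and PLAT, tissue plasminogen activator, by -3.39. KIAA0040 (2.89), FLRT2 (2.59) and HOMER2 (2.48) were higher than in TIP60 knockout. All of these were within the called set of their comparison and not called against sgNeg2.

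Against GAS41 knockout, which had the fewest calls, the 3 largest positive differences were NTSR1, the neurotensin receptor (22.1 and 22.3 FPKM against a mean of 7.81, 1.42 ± 0.23, adjusted p = 0.0137), INHBA, an activin subunit (1.29, adjusted p = 0.0432), and HAS2 (1.10, adjusted p = 0.0432). The 3 largest negative differences were SRGN, a secretory granule proteoglycan (5.16 and 4.51 FPKM against 26.9, -2.25 ± 0.27, adjusted p = 0.0022), PTX3, a secreted pentraxin (-1.93, adjusted p = 0.0022), and P3H2, a collagen prolyl hydroxylase (-1.38, adjusted p = 0.0125). SRGN was above both ACTL6A guides in all 16 libraries of other knockouts.

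Of the 89 genes called against sgNeg2, 17 were also called against EP400, beside 1.84% of all tested genes. Against TIP60 46 were called, beside 36% of all tested genes, and against GAS41 9, beside 0.316%. The 89 were selected on the same ACTL6A libraries, so these counts are a description and nothing is read from them. All 17 and all 9 had the direction they had against sgNeg2, as did 23 of the 46. Only ACTL6A, INO80 and SNAP25 were called in all 3 direct comparisons as well as against sgNeg2. INO80 was at 8.25 and 7.59 FPKM in EP400, 8.46 and 8.32 in TIP60 and 7.76 and 7.38 in GAS41 knockout, against 11.7 and 15.1 in ACTL6A knockout. Its differences were 0.68, 0.61 and 0.74 (adjusted p = 0.0158, 0.00113 and 0.0139). SNAP25, a SNARE protein of synaptic vesicle release and one of the neuron markers, was at 9.67 and 11.1 FPKM in sgNeg2 and 7.45 and 4.53 with the guides (-0.73 ± 0.16, adjusted p = 0.0414). It differed by -0.99, -0.91 and -1.22 from EP400, TIP60 and GAS41 (adjusted p = 0.0102, 0.000471 and 0.00422). The other 4 expressed neuron markers were not called. In bulk RNA, fewer cells of a type and less RNA per cell cannot be told apart.

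**Figure D5:**
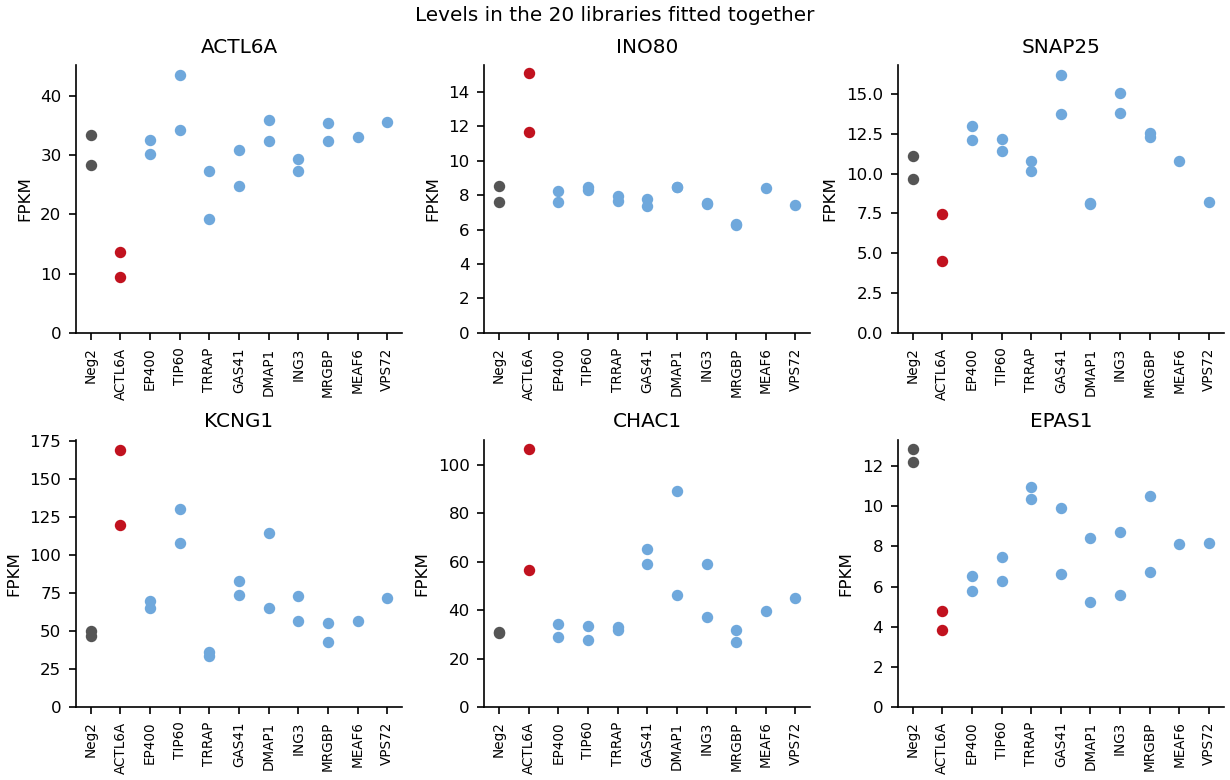
FPKM (linear axes from 0) of 6 genes in the 20 libraries fitted together, by target, with ACTL6A knockout in red, sgNeg2 in dark grey and other knockouts in blue. Each point is 1 library. ACTL6A, SNAP25 and EPAS1 are lower with both ACTL6A guides than in all 16 libraries of other knockouts, and INO80 is higher than in all 16, while KCNG1 and CHAC1 overlap 1 or more of them.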

How the data were processed

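The authors deposited FPKM values for 19102 genes in 48 libraries of strand-specific, polyA-selected RNA. Per the submitters' processing notes, TopHat2, Cufflinks and Cuffdiff were used with hg19; neither versions nor roles are given. Sections of the table had been scaled separately, so only the 22 libraries of the sgNeg2 section were used, less the 2 columns (MEAF6 guide 2 and VPS72 guide 2) whose values are identical. The 20 left were fitted together, 1 level per target, as log2(FPKM + 1), for genes of at least 1 FPKM in 2 or more of them (11382). limma 3.58.1 in R 4.3.3 was used (empirical Bayes moderation with a trend on mean level; two-sided; Benjamini-Hochberg adjustment across the tested genes) and genes were called at an adjusted p under 0.05. Log2 values understate changes of weakly expressed genes. Depth was estimated from steps between low values, and 0 columns belonged to other samples. The script was tested on simulated data. Genes named were ACTL6A, the 12 largest called rises and 12 other largest falls with a mean of at least 5 FPKM in the higher group, the members with the smallest p of each list, and the 3 largest differences per direct comparison, and others where stated; some genes that met this rule are not reported here. Members and lists were chosen with earlier results of these data known. Alternatives were the pseudocount, the filter, centring, the source of the spread, a replicate block and leaving out each library. An exact permutation test of 2 against 2 libraries cannot pass 0.05.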

Additional observations from a re-analysis of the deposited data

How the results depend on the processing

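The count of 89 genes ran from 68 to 129 under pseudocounts of 0.1 and 5, a filter at 5 FPKM, median centring and 2 other spreads. These were the spread of the comparison alone (97) and the spread without the TIP60 and TRRAP libraries. Of the 97, 56 were among the 89, and under the other settings of that range 65 to 85 were. With no filter on low values, where 16854 genes were tested, the count was 33. Leaving out 1 library gave 0 to 380 calls. Of the 28 called genes that the naming rule gave, 27 passed the stricter filter. With no filter 6 of the 28 were called, without sgNeg2 R1 or guide 2 0, and without sgNeg2 R2 3. ACTL6A mRNA ranged from -1.12 to -1.61 over the settings other than leaving out guide 2 (-1.11, adjusted p = 0.24) or sgNeg2 R1 (-1.24, adjusted p = 0.107), in which it was not called. The count against EP400 was 83 with no filter, 335 with the spread of the comparison alone, 403 without the TIP60 and TRRAP libraries in the spread, and 3 to 131 with 1 library left out. Against TIP60 it was 2449 with the spread of the comparison alone and 2720 to 3517 with 1 left out. Against GAS41 it was 11, 6 and 86 under the same 3 changes and 0 to 23 with 1 left out. Guide 1 against guide 2 gave 1 gene at a pseudocount of 0.1 and 29 with no filter. The cause of these shifts was not tested. More genes were tested without the filter, and fewer libraries were fitted when 1 was left out.

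By the titles, the replicate numbers of sgNeg2 name replicates and those of ACTL6A name guides, so they share only a number. The deviations correlated at -0.221 across genes. With the number as a replicate block the counts were 112 against sgNeg2, 244 against EP400, 4261 against TIP60 and 22 against GAS41. With the sgNeg2 numbers crossed, an alternative chosen after seeing the data, the count against sgNeg2 was 80. Depth of 9.3 to 17.4 fragments per kilobase at 1 FPKM limits genes near the filter.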
